A study of Rattus norvegicus with 10 samples.

Results

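The Bcl2 family of apoptosis regulators was followed at the RNA level in primary rat oligodendrocyte progenitor cells (OPCs) and oligodendrocytes (OLs) in which miR-145 had been raised or inhibited. The family was taken as 10 gene symbols (Bcl2, Bcl2l1, Bcl2l11, Mcl1, Bax, Bak1, Bad, Bid, Bbc3 and Pmaip1), and the deposited annotation carried 8 of them among 23487 genes. Mcl1 and Bbc3 were not analysed here. All cells came from cortices of Sprague-Dawley rat pups aged P1 to P3, were shaken off mixed glial cultures as OPCs, and were transfected with synthetic RNAs at 30 nM. OLs were assayed 5 days after transfection and had received a scrambled mimic (OL miR-ctl), the miR-145 mimic (OL miR-145) or the miR-145 and miR-219 mimics together (OL miR-145+miR-219). OPCs were assayed 24 h after transfection and had received a scrambled inhibitor (OPC anti-miR-ctl) or the miR-145 inhibitor (OPC anti-miR-145). Each of these 5 groups held 2 libraries. The study describes replicates of primary cell culture in general as cultures from separate animals, while the labels do not say it of these libraries. The titles of the OL miR-145 libraries name miR-145 alone, while a treatment label names miR-219 as well, and the titles were followed. The labels describe transfection of synthetic RNAs, as does the study's account of the mimic experiment, but its sequencing methods name lentiviral transduction, and the labels were followed.

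The Bcl2 family decides whether the outer mitochondrial membrane is permeabilized, the step that releases cytochrome c and starts the caspase cascade. Bcl2 and Bcl2l1 (Bcl-xL) are among its guardians, and Bax and Bak1 are the effectors that form the pores. The BH3-only members Bcl2l11 (Bim), Bid, Bad and Pmaip1 (Noxa) either neutralize the guardians or activate the effectors. In the OL lineage, newly formed OLs that do not receive survival signals are removed by apoptosis. A miRNA mimic adds a mature miRNA to the cell, and an inhibitor binds and blocks the endogenous one.

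The miRNA that was raised or inhibited is shown first, since every treated group received its mimic or its inhibitor. The sequence of miR-219 is not shown. Per the labels, the mimic has the mature sequence of miR-145-5p, printed from RefSeq (GRCr8, minus strand, chr18:57370033-57370055) with the seed, bases 2 to 8, in capitals. The promoters of Bcl2l11 and Pmaip1 are shown because these were the members with the largest increase and the largest decrease among those called in anti-miR-145 OPCs. Each covers 250 bases before and 50 bases after the annotated start in RefSeq GRCr8, on the plus strand (Bcl2l11, chr3:135819792-135820091, and Pmaip1, chr18:62255720-62256019). Capitals mark a match to any of 5 searched motifs.
rno-miR-145-5p: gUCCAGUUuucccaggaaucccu
Bcl2l11 promoter: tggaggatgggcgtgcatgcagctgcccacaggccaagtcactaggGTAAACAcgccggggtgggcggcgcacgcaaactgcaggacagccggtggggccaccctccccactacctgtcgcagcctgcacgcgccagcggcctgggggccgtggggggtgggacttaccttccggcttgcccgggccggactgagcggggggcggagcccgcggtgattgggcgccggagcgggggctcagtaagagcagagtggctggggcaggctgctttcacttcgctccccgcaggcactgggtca
Pmaip1 promoter: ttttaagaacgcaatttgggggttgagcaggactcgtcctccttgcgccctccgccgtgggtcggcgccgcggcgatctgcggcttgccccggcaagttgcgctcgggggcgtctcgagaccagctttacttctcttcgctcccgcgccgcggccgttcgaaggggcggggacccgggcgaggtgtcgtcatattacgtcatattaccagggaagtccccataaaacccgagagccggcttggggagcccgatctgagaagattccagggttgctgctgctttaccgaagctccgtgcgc
Promoter windows were found for 7 of the 8 members, Bax being the exception, and made up 10 windows because Bcl2l1 had 4. On either strand, the FOXO core GTAAACA was present in 3.78% of all 33469 windows, and among the members in those of Bcl2l11 (204 bases before the start) and Bad (118 bases before the start). The interferon-stimulated response element (GAAA, any 2 bases, GAAA) was in 3.92% of all windows, the AP-1 motif TGACTCA in 4.63%, the E2F motif TTTCCCGC in 0.974% and the CHOP-ATF composite TTGCATCA in 0.795%, and these 4 motifs were in 0 of the 10 member windows. The Bcl2l11 window was 71.0% G+C and the Pmaip1 window 63.3%, against a median of 51.7% over all windows. A match shows only that these letters are in the window.

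RNA was read by RNAseq, and levels are given as CPM, the counts scaled by edgeR to the library size with TMM factors. They were compared between groups and never between genes, since gene lengths were not used. Library totals ran from 33505706 to 42684206 estimated counts. The summed level of 10 OL markers was 15500 to 34100 CPM in OL libraries and 1100 to 1320 CPM in OPC libraries, and that of 7 OPC markers was 6010 to 8250 CPM in OPC libraries and 2290 to 3070 CPM in OL libraries. Astrocyte and microglial markers were present in every group, with 8 astrocyte markers summing to 5860 to 14400 CPM in OL libraries and 12 microglial markers to 933 to 1170 CPM in OPC libraries. In such bulk RNA, fewer cells of a type and less RNA per cell cannot be told apart. Members ranged from 16 to 11835 counts in a library, with Bcl2 the shallowest, at 16 to 130 counts, followed by Pmaip1, at 46 to 526.

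**Figure D1:**
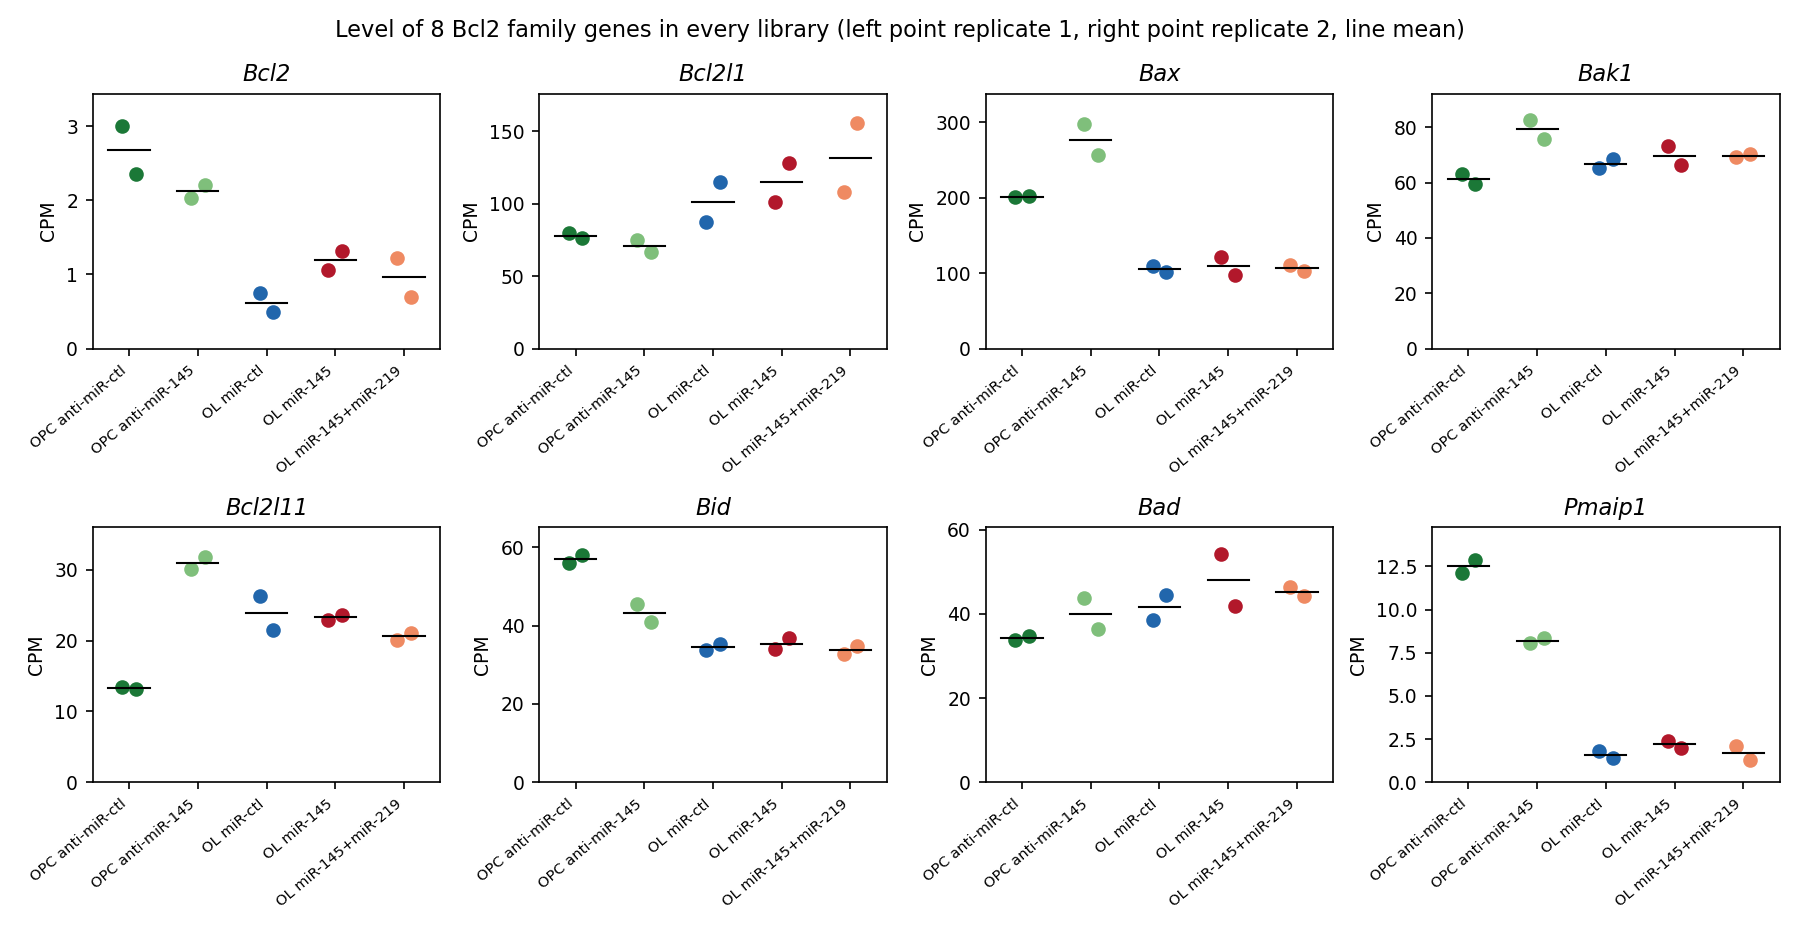
Level of each of the 8 measured family members in CPM (y axis, from 0, a separate scale in each panel) in the 10 libraries, with replicate 1 at left and replicate 2 at right of each group and a line at the mean of the 2. Bcl2l11 in OPC anti-miR-ctl libraries sits at 13.2 and 13.5 CPM, below every other library, and Pmaip1 and Bcl2 are high in OPCs and low in OLs.

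In OPCs given the miR-145 inhibitor, members of the family were called in both directions. With edgeR's quasi-likelihood test and Benjamini-Hochberg adjustment over 15496 genes, 5 of the 8 members were called, against 28.1% of all genes tested. Bcl2l11, Bax and Bak1 rose (3 members, against 12.1% of all genes called higher) and Bid and Pmaip1 fell (2 members, against 16% called lower). All 8 members had libraries that did not overlap between the groups, as did 68.6% of all genes.

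Bcl2l11 encodes Bim, a BH3-only protein that binds every guardian of the family. Its level was 13.5 and 13.2 CPM in the OPC anti-miR-ctl libraries and 30.2 and 31.9 CPM in the OPC anti-miR-145 libraries. Both inhibitor libraries were well above both controls, and the gap far exceeded the spread within either group. The log2 fold change was 1.20 (SE 0.09, 95% interval 0.98 to 1.42), a 2.3-fold increase (edgeR adjusted p = 0.000191), and with any single library left out it was 1.16 to 1.23 and remained called.

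The effectors rose less. Bax was at 200.7 and 202 CPM in control OPCs and at 297.5 and 256.1 CPM with the inhibitor, so the inhibitor libraries differed from each other more than the controls did, without overlap. The log2 fold change of Bax was 0.45 (SE 0.10, edgeR adjusted p = 0.0173). Bak1, which forms the same kind of pore, was at 63.0 and 59.5 CPM in controls and 82.7 and 75.8 CPM with the inhibitor, a log2 fold change of 0.36 (SE 0.09, edgeR adjusted p = 0.0266).

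The BH3-only members did not move together. Bid, which is cut by caspase 8 to link death receptors to mitochondria, was lower with the inhibitor, at 45.5 and 40.9 CPM against 55.9 and 58.0 CPM. Its log2 fold change was -0.41 (SE 0.10, edgeR adjusted p = 0.0188). Pmaip1, whose product Noxa is a selective antagonist of Mcl1, was at 8.07 and 8.33 CPM with the inhibitor and at 12.1 and 12.9 CPM in controls. The log2 fold change of Pmaip1 was -0.62 (SE 0.11, edgeR adjusted p = 0.00637), so it went the opposite way to Bcl2l11, although with all 5 groups in 1 fit it was not called (-0.61, edgeR adjusted p = 0.102). Bad, the BH3-only protein held inactive by survival kinases, was at 43.8 and 36.4 CPM against 33.8 and 34.8 CPM and was not called (log2 fold change 0.21, 95% interval -0.06 to 0.49, edgeR adjusted p = 0.216).

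Neither measured guardian was called in OPCs. Bcl2l1 was at 75.2 and 66.6 CPM with the inhibitor and 80.0 and 76.0 CPM in controls (log2 fold change -0.15, 95% interval -0.38 to 0.08, edgeR adjusted p = 0.282). Bcl2 was at 2.04 and 2.21 CPM against 3.00 and 2.35 CPM, where the control libraries differed from each other more than the inhibitor libraries did (log2 fold change -0.35, 95% interval -0.86 to 0.15, edgeR adjusted p = 0.26). Without either OPC anti-miR-ctl library, Bax, Bak1 and Bid were no longer called and 2 members remained (Bcl2l11 and Pmaip1). Without OPC anti-miR-145 replicate 1, Bcl2l1 was also called (log2 fold change -0.26, edgeR adjusted p = 0.0195), and without OPC anti-miR-145 replicate 2, Bad was also called (log2 fold change 0.36, edgeR adjusted p = 0.00507).

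Other measures moved with the inhibitor in the same libraries. All 11 interferon response genes measured fell (median log2 fold change -3.12, against 0.00 over all genes), among them Usp18 (-3.89), Isg15 (-3.64) and Oas1a (-3.20), each with an edgeR adjusted p under 0.05. Isg15, a ubiquitin-like protein induced by interferon, was at 115 and 112.4 CPM in control OPCs and 8.77 and 9.66 CPM with the inhibitor. Of 12 microglial markers, 6 were called higher and 5 lower, with summed levels of 933 to 1170 CPM with the inhibitor and 1060 to 1120 CPM in controls and no marker at 0 in both libraries of a group. Of 8 astrocyte markers, 1 was higher (Gfap) and 4 lower, and their sum was 478 to 523 CPM against 762 to 784 CPM. Of 7 OPC markers, 3 were called higher (Olig1, Pdgfra and Olig2) and 1 lower (Cspg4). The OPC markers summed to 7110 to 8250 CPM with the inhibitor and 6010 to 6180 CPM in controls. The part of these differences in the changes of the Bcl2 family members was not tested.

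**Figure D2:**
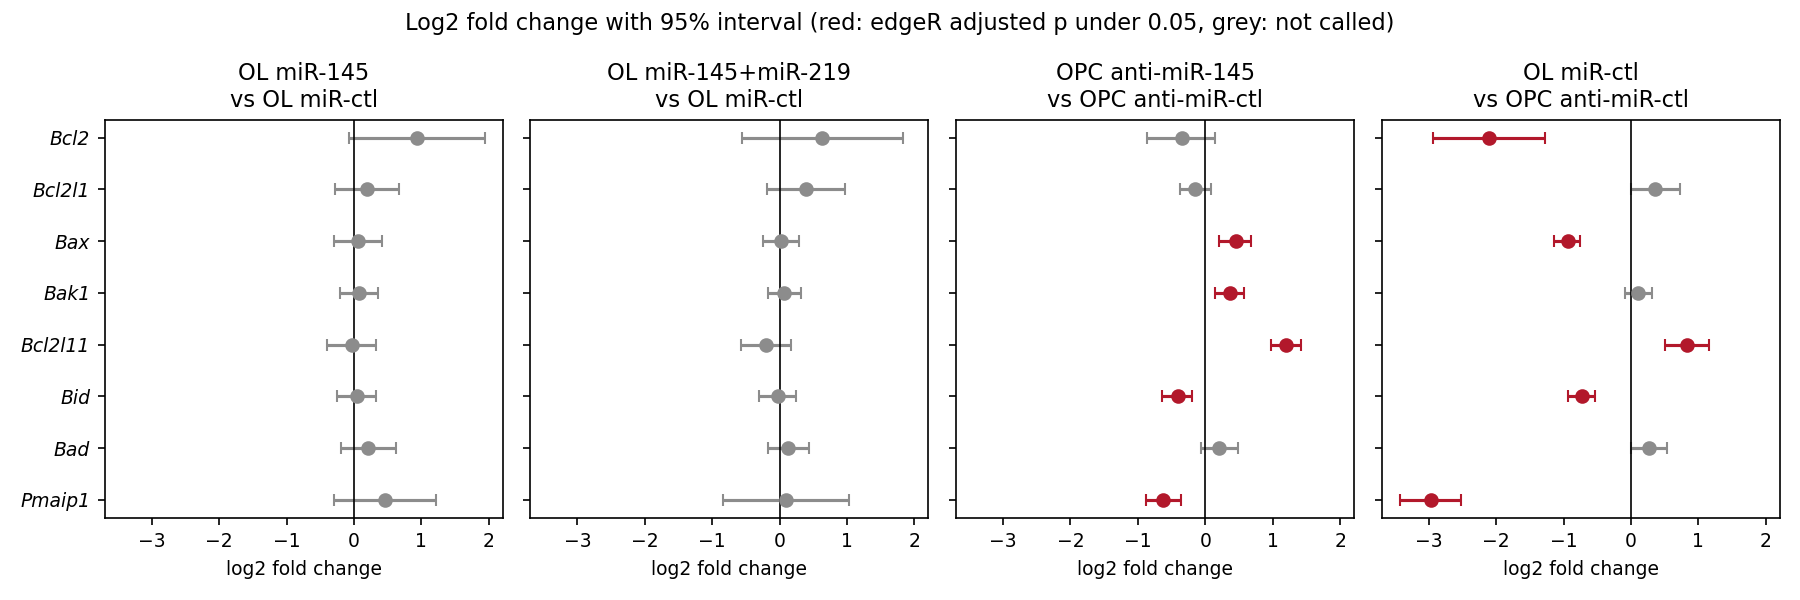
Log2 fold change of each of the 8 members (x axis) in 4 comparisons, with the 95% interval from edgeR as bars, red where the gene was called and grey where it was not. The members called in OPC anti-miR-145 against OPC anti-miR-ctl are Bcl2l11, Bax and Bak1 on the right of 0 and Bid and Pmaip1 on the left, and every interval in the mimic comparisons spans 0.

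The mimic comparisons address how raising miR-145 alters differentiating OLs. The study measured cell death in OLs that overexpressed miR-145 from a lentivirus, while the labels of these libraries describe transfected mimics. In OL miR-145 against OL miR-ctl, 0 of the 8 members were called by edgeR, as were 0% of all 15461 genes tested. At an unadjusted p under 0.05 there were also 0 members, against 13.4% of all genes. DESeq2 called 0 members, against 4.12% of all genes. With a replicate block, edgeR called 0 members, against 14.7% of all genes. The log2 fold changes of the members ran from -0.03 to 0.93, with a median of 0.13 against -0.01 over all genes. The groups did not overlap for 2 members (Bcl2 and Pmaip1, both higher with the mimic), as was the case for 47.3% of all genes.

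Among the guardians in OLs, Bcl2 was at 1.06 and 1.31 CPM with miR-145 and 0.753 and 0.491 CPM in controls. The difference rests on 37 and 52 counts against 30 and 16 (log2 fold change 0.93, SE 0.40, 95% interval -0.08 to 1.94, edgeR adjusted p = 0.398). Bcl2l1 was at 101.3 and 128 CPM against 87.6 and 114.9 CPM, and the groups overlapped (log2 fold change 0.19, 95% interval -0.28 to 0.66).

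Bcl2l11 was at 22.9 and 23.7 CPM with miR-145 and 26.3 and 21.6 CPM in OL controls. The mimic libraries lay between the control libraries, and the 95% interval of the log2 fold change was -0.40 to 0.33 around -0.03. Bax, at 121.8 and 98.1 CPM with the mimic and 109.4 and 101.8 CPM in controls, had an interval of -0.29 to 0.42, and Bak1 one of -0.21 to 0.35. For Bid the interval was -0.25 to 0.33, for Bad -0.20 to 0.63 and for Pmaip1 -0.30 to 1.22. All of these intervals span 0. For scale, the log2 fold change of Bak1 in anti-miR-145 OPCs, under the opposite manipulation, was 0.36. The intervals of Bax, Bad and Pmaip1 hold a rise of that size, as do those of Bcl2 and Bcl2l1 given above. Only the interval of Bcl2l11 holds a fall of that size. In the same comparison 8 of 8 astrocyte markers had a positive log2 fold change (0.64 to 1.68). Of these, edgeR called 0, although 7 had an unadjusted p under 0.05, and DESeq2 called 5 (Gja1, Aqp4, S100b, Gfap and Slc1a2). The astrocyte markers had sums of 9820 to 14400 CPM with miR-145 and 5860 to 6870 CPM in OL controls. All 12 microglial markers were positive as well (0.09 to 1.91), of which edgeR called 0 and DESeq2 called 1 (Cx3cr1). Their sums overlapped, at 412 to 1040 CPM with miR-145 and 413 to 616 CPM in OL controls. The part of either marker set in the member values was not tested.

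Adding the miR-219 mimic left the family uncalled as well. In OL miR-145+miR-219 against OL miR-ctl, 0 of 8 members were called by edgeR (0% of 15436 genes), 0 had an unadjusted p under 0.05 (6.19% of all genes), and DESeq2 called 0 (0.687% of all genes). The groups were apart for 2 members (36.8% of all genes), Bcl2l11, lower at 20.2 and 21.2 CPM, and Bak1, higher at 69.2 and 70.2 CPM against 65.2 and 68.4 CPM. In OL miR-145+miR-219 against OL miR-145, 0 of 8 members were called by edgeR (0% of 15501 genes) or by DESeq2 (0.0581% of all genes), and 0 had an unadjusted p under 0.05 (1.47% of all genes). The groups were apart for 1 member, Bcl2l11, which was lower with both mimics (24.8% of all genes; log2 fold change -0.18, 95% interval -0.48 to 0.11). The comparisons with OL miR-ctl share its 2 libraries, and all 3 mimic comparisons share libraries pairwise.

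The largest differences in the family, those of Pmaip1 and Bcl2, lay between control OLs and control OPCs. Bcl2l11 and Bak1 differed more with the inhibitor in OPCs. Between the control groups, 5 of 8 members were called by edgeR, against 57.5% of 15721 genes. Pmaip1, Bcl2, Bax and Bid were lower in OLs (4 members, against 28.7% of all genes) and Bcl2l11 was higher (1 member, against 28.8%). All 8 were apart, as were 81.8% of all genes. These groups differ in cell stage, medium, time after transfection and control oligonucleotide, which cannot be told apart. Astrocyte markers moved between them too: 7 of 8 were called higher in OLs by edgeR (median log2 fold change over the 8 markers 2.33), with sums of 5860 to 6870 CPM in OL miR-ctl and 762 to 784 CPM in OPC anti-miR-ctl, and their part in the member differences was not tested.

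Pmaip1 was at 1.78 and 1.41 CPM in OL miR-ctl libraries and at 12.1 and 12.9 CPM in OPC anti-miR-ctl libraries, a log2 fold change of -2.97 (SE 0.18, edgeR adjusted p = 0.000184). Bcl2 was at 0.753 and 0.491 CPM against 3.00 and 2.35 CPM, a log2 fold change of -2.10 (SE 0.32, edgeR adjusted p = 0.00397). Both were at low counts in OLs, yet no OL library of any treatment reached the lowest OPC library of either gene. Bax, at 109.4 and 101.8 CPM against 200.7 and 202 CPM, was lower by 0.94 on the log2 scale (log2 fold change -0.94, SE 0.08, edgeR adjusted p = 0.000468).

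Bid was at 33.9 and 35.2 CPM in OLs and 55.9 and 58.0 CPM in OPCs (log2 fold change -0.73, SE 0.08, edgeR adjusted p = 0.00124). Of 12 microglial markers, edgeR called 6 lower and 0 higher in OLs, with summed levels of 413 to 616 CPM against 1060 to 1120 CPM. The markers went in both directions, since C1qa (0.55), C1qb (0.54), C1qc (0.48), Cx3cr1 (0.47) and P2ry12 (0.19) had both OL libraries above both OPC libraries, and DESeq2 called C1qa and C1qb higher (adjusted p = 0.0174 and 0.043). Their part in the difference of Bid was not tested. Bcl2l11 was higher in OLs (log2 fold change 0.83, SE 0.13, edgeR adjusted p = 0.00424), but the call was lost without either OPC anti-miR-ctl library, at an edgeR adjusted p of 0.051 or 0.0551. The inhibitor comparison in OPCs uses the same pair of control libraries, in which Bcl2l11 was lowest of all 10 libraries, so its values in these comparisons are not independent.

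The members not called between stages were Bcl2l1, Bad and Bak1. Bcl2l1 had a log2 fold change of 0.36 (95% interval 0.00 to 0.73, edgeR adjusted p = 0.0792), Bad of 0.27 (95% interval 0.00 to 0.53, edgeR adjusted p = 0.077) and Bak1 of 0.11 (95% interval -0.09 to 0.31, edgeR adjusted p = 0.276). Without OL miR-ctl replicate 1, Bcl2l1 (0.56) and Bad (0.38) were called as well.

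Ordered by mean level over the 5 groups, Bcl2l11 was highest in OPC anti-miR-145 (31.0 ± 1.19 CPM, SD, n = 2), followed by OL miR-ctl (23.9 ± 3.33), OL miR-145 (23.3 ± 0.523), OL miR-145+miR-219 (20.7 ± 0.701) and OPC anti-miR-ctl (13.3 ± 0.189). OL miR-ctl and OL miR-145 overlapped, and the other neighbours did not. Bax followed another order, from OPC anti-miR-145 (277 ± 29.2 CPM) and OPC anti-miR-ctl (201 ± 0.907) to OLs, in which the means of the 3 groups were 106 to 110 CPM with overlapping libraries. Pmaip1 was highest in OPC anti-miR-ctl (12.5 ± 0.509 CPM) and next in OPC anti-miR-145 (8.20 ± 0.181), and its OL means were 1.60 to 2.19 CPM. The OL means of Bcl2 were 0.622 to 1.19 CPM, against 2.12 ± 0.121 in OPC anti-miR-145 and 2.68 ± 0.458 in OPC anti-miR-ctl. Bcl2l1 ran the other way, from 70.9 ± 6.08 CPM in OPC anti-miR-145 to 132 ± 33.5 CPM in OL miR-145+miR-219, and its 3 OL groups overlapped with each other. Group means ran from 61.2 to 79.2 CPM for Bak1 and from 34.3 to 48.0 CPM for Bad, and those of Bid from 33.7 CPM in OL miR-145+miR-219 to 57.0 CPM in OPC anti-miR-ctl.

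Ratios of effector or BH3-only counts to Bcl2l1 counts were followed as changes between groups, since length cancels only there. Bax per Bcl2l1 was 2.51 and 2.66 in OPC anti-miR-ctl and 3.96 and 3.85 in OPC anti-miR-145. It was 1.25 and 0.886 in OL miR-ctl, 1.20 and 0.766 in OL miR-145, and 1.03 and 0.663 in OL miR-145+miR-219. All 4 OPC libraries were thus above all 6 OL libraries, and the inhibitor libraries were the highest. Bcl2l11 per Bcl2l1 was 0.168 and 0.174 in OPC anti-miR-ctl and 0.401 and 0.479 in OPC anti-miR-145, and it was 0.136 to 0.300 across the OL libraries. Replicate 1 had the higher ratio in every OL group for both ratios, and for Bax the replicates of an OL group were further apart than the OL group means. No test was run on the ratios.

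**Figure D3:**
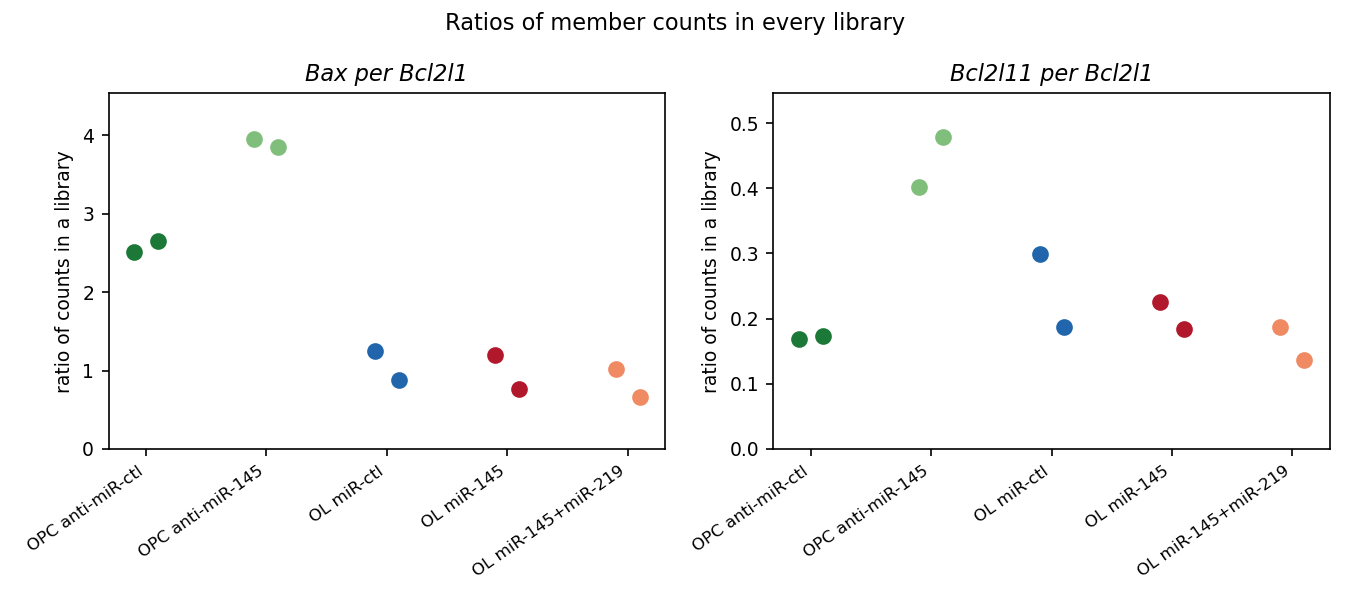
Ratio of counts of Bax (left) and Bcl2l11 (right) to counts of Bcl2l1 in each of the 10 libraries (y axis from 0, no unit), with replicate 1 at left and replicate 2 at right of each group. The OPC anti-miR-145 libraries are the highest in both panels, at 3.85 and 3.96 for Bax and 0.401 and 0.479 for Bcl2l11.

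The mimic response in OLs and the inhibitor response in OPCs were compared in 1 fit of 8 libraries that share no sample between the responses. They differ in the manipulation as well as in stage and time, which cannot be told apart. Because the manipulations were opposite, responses that mirror each other also give a difference. A call therefore does not show that the responses disagree. The difference, mimic response minus inhibitor response, was called for 2 of the 8 members, against 10.2% of 16217 genes (7.27% higher and 2.95% lower). For Bcl2l11 it was -1.22 on the log2 scale (SE 0.17, edgeR adjusted p = 0.00692), since the response was -0.03 in OLs and 1.20 in OPCs. For Pmaip1 it was 1.09 (SE 0.25, edgeR adjusted p = 0.0357), from 0.46 in OLs and -0.62 in OPCs. The Pmaip1 call was lost without any 1 of 6 of the 8 libraries, at edgeR adjusted p-values of 0.0653 to 0.156, and with all 5 groups in 1 fit (0.0833), and was kept without OL miR-145 replicate 2 or OL miR-ctl replicate 1. For Bcl2 the difference was 1.29 (SE 0.42, edgeR adjusted p = 0.0969) and for Bid 0.47 (edgeR adjusted p = 0.069), neither called.

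The genes around the family in the cell death pathway were taken from lists and read against the same shares of all genes. In anti-miR-145 OPCs, 3 of 10 other Bcl2 family genes were called, near the 28.1% of all genes: the mitophagy receptor Bnip3l rose (log2 fold change 0.38), and the guardian Bcl2a1 (-1.47) and the effector-like Bok (-0.43) fell. Of 9 mitochondrial release and apoptosome genes, 2 were called, also near that share, both higher: the mitochondrial nuclease Endog (0.63) and the flavoprotein Aifm1 (0.33).

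Genes of caspase inhibitors fell in anti-miR-145 OPCs in 4 of 6 cases, with a median log2 fold change of -0.86 against 0.00 over all genes and 16% of all genes called lower. Birc3, an inhibitor of apoptosis protein that is also a target of NF-kB, was at 1.76 and 1.24 CPM with the inhibitor and 16.3 and 15.7 CPM in controls (log2 fold change -3.43, SE 0.18, edgeR adjusted p = 6.4e-05). Cflar, which blocks caspase 8, was at 6.13 and 5.61 CPM against 14.7 and 13.6 CPM (-1.28). Birc5, or survivin, which also serves cell division, fell (-1.25), and Birc2 fell less (-0.36).

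Upstream genes moved in both directions, at shares to be read against the 28.1% of all genes called. Of 9 death receptor genes, Tnfrsf1a rose (log2 fold change 0.45) and the ligand gene Faslg (-2.65) and the adaptor gene Fadd (-0.36) fell. Of 7 genes of transcription regulators known to act on BH3-only genes, Jun rose (0.56), and Trib3 (-1.52) and Ddit3 (-0.99), both of the endoplasmic reticulum stress response, fell.

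Between control OLs and control OPCs more of these genes were called, as were 57.5% of all genes. Of 10 other Bcl2 family genes, 4 were higher and 3 lower in OLs. Bmf, a BH3-only gene, was at 76.8 and 115.4 CPM in OLs against 10.9 and 10.0 CPM in OPCs (log2 fold change 3.18). Bnip3 (1.36) and Bnip3l (0.72) were also higher, and Bik (-4.30, SE 0.80), Bok (-2.04) and Bcl2a1 (-1.07) were lower. Bik was too low in OLs to pass the count minimum in the mimic comparisons. Of 9 mitochondrial release and apoptosome genes, Endog (0.93) and Casp9 (0.57) were higher, and Apaf1 (-0.67) and Diablo (-0.66) lower. Of 10 IDs of caspase and caspase-related genes, 2 were higher and 4 lower. The higher ones were Casp6 (1.77, for 1 of its 2 IDs, which could split its reads) and Dffb (0.56). The lower ones included Casp8 (-1.71) and Parp1 (-0.55).

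Of 6 caspase inhibitor genes, Birc2 was higher in OLs (1.51) and Birc5 (-3.43), Birc3 (-1.54) and Cflar (-0.81) were lower. Birc5 was at 6.58 and 3.71 CPM in OLs and 50.6 and 60.5 CPM in OPCs. Of 8 death receptor genes, Tradd was higher (0.51), and Fadd (-0.72), Fas (-0.56) and Tnfrsf21 (-0.45) lower. Of 7 regulators, 5 were higher, among them Foxo1 (2.44), Jun (1.55) and Foxo3 (0.83), and Tp73 was lower (-1.33). All 11 interferon response genes were lower in OLs (median -7.37), with Oas1a at -8.05, Mx1 at -7.37 and Isg15 at -5.58.

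**Figure D4:**
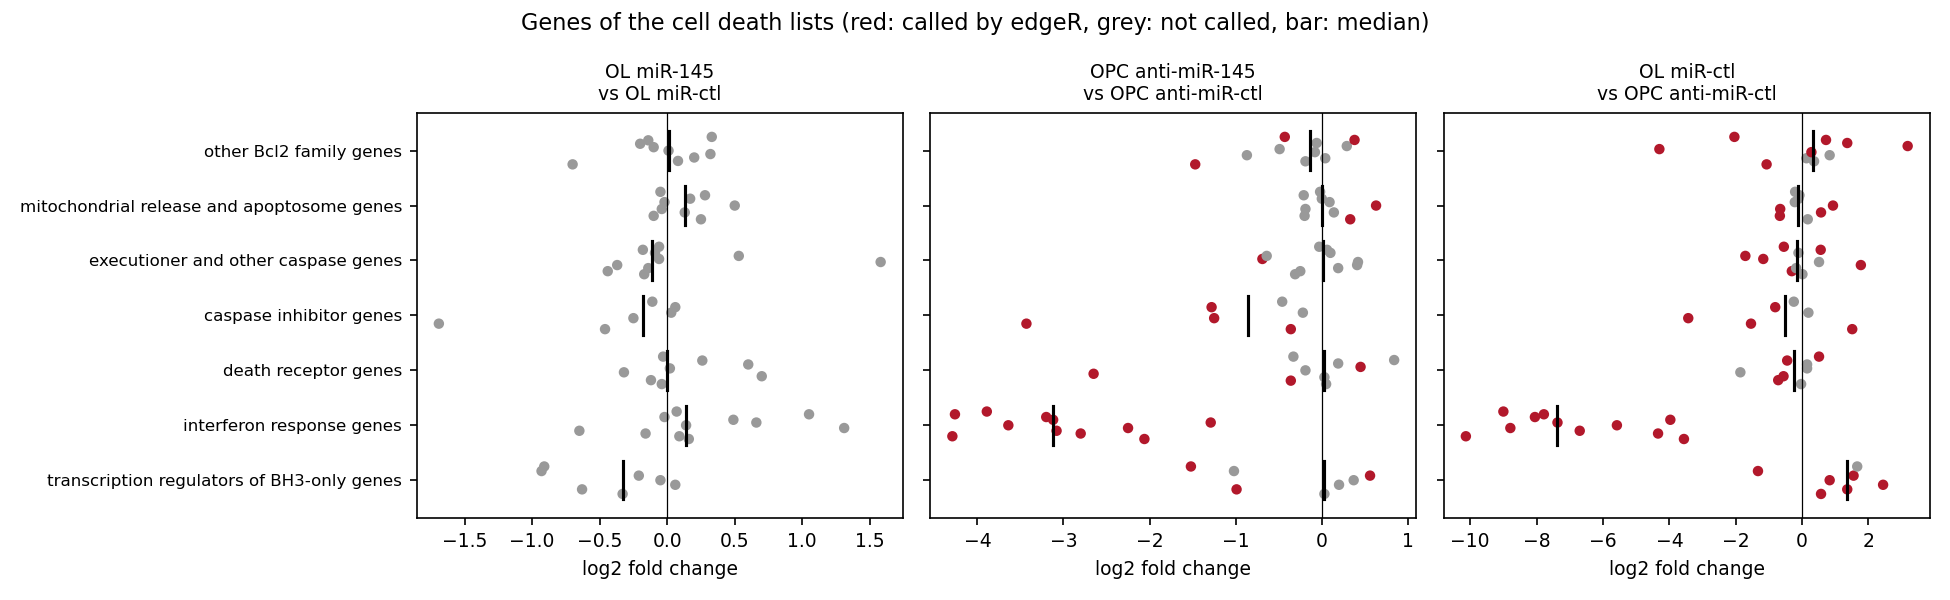
Log2 fold change (x axis, scaled separately in each panel) of the genes of 7 lists, of the cell death pathway and the interferon response, in 3 comparisons. Each point is a gene ID, red where edgeR called it and grey where it did not, and a bar marks the list median. No gene is called in the miR-145 mimic panel, and the interferon response genes stand at a median of -3.12 in the inhibitor panel and -7.37 in the stage panel.

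In the 3 mimic comparisons, 0 genes of these 7 lists were called by edgeR. DESeq2 called Birc3 lower in each comparison with OL miR-ctl (adjusted p = 0.0128 for OL miR-145 and 0.00423 for OL miR-145+miR-219) and called Tnfrsf1a, a receptor for tumour necrosis factor, higher in OL miR-145 (adjusted p = 0.0448). In OL miR-145 against OL miR-ctl the gene with the smallest p of each list was Bcl2l13 (log2 fold change 0.20), Aifm1 (0.25), Casp2 (-0.44), Birc3 (-1.69), Tnfrsf1a (0.60), Mx2 (0.49) and Atf4 (-0.33). Birc3 was at 1.50 and 1.90 CPM with miR-145 and 7.28 and 3.74 CPM in OL controls (SE 0.40, edgeR adjusted p = 0.192). With both mimics these were Bcl2a1 (-0.88), Vdac2 (0.21), the Casp6 ID that was higher in OLs (-0.41), Birc3 (-2.03), Tnfrsf1a (0.27), Mx1 (1.36) and Atf4 (-0.22). Between the mimic groups they were Bok (-0.22), Endog (-0.37), the other Casp6 ID (-0.89), Birc3 (-0.35), Tnfrsf1a (-0.33), Isg15 (-0.51) and Ddit3 (0.33). In the test of the mimic response minus the inhibitor response, Bnip3l (-0.50), Cflar (1.36) and all 11 interferon response genes (median 3.60) were called, and 0 genes of the mitochondrial, death receptor and regulator lists, in which the smallest p belonged to Vdac2 (0.51), Fas (0.68) and Jun (-0.76).

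As a description over the 10 libraries, which share their groups and depth, each member was set beside the other 10785 named genes with a mean of at least 5 CPM (10786 for Bcl2). The pattern of Bcl2l11 was closest to Aggf1 (Pearson r = 0.982 on log2(CPM + 1)), Olfml2a (0.967) and Wipi2 (0.963). That of Bax was closest to Tmem120a (0.997), Ctnnbl1 (0.996) and Tcf3 (0.996), and that of Bak1 to Mtmr1 (0.971), Cd151 (0.967) and Map1lc3a (0.964). Among the closest to Bid were Slc6a12 (0.995) and Itgax (0.994), an integrin gene of myeloid cells. Pmaip1 was closest to Gtse1 (0.997), Tnfaip8 (0.996) and Ghr (0.996), and Bcl2 to Lasp1 (0.982), Dock11 (0.980) and Galnt13 (0.978). Bcl2l1 was closest to Mast3 (0.985), Trim36 (0.979) and Tmem200c (0.975), and Bad to LOC100361543 (0.983), Ptpmt1 (0.970) and Tmed3 (0.967). Within the family the highest values were between Pmaip1 and Bcl2 (0.95), Pmaip1 and Bid (0.92) and Pmaip1 and Bax (0.90), and the lowest was between Bcl2l1 and Bax (-0.85).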

How the data were processed

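RNAseq was performed on 10 libraries (TruSeq Stranded mRNA, Illumina NextSeq). The authors quantified reads with Salmon (version 0.12.0 per the submitters' processing notes) against GENCODE rat transcripts and summarized them with tximport, and they deposited estimated counts per gene, not normalized. Between 16.0% and 17.5% of a library's values were not whole, and counts were rounded. A second deposited table, used only for gene symbols, holds a DESeq2 test by the authors of the OL miR-145 group: mean normalized signal, log2 fold change, score and p-values.

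Analyses used R 4.3.3 with edgeR 4.0.16 (TMM, glmQLFit, glmQLFTest) and DESeq2 1.42.0, and Python 3.11.15 with matplotlib 3.10.9. edgeR was fitted to the 4 libraries of each of the 5 comparisons, and to 8 libraries for the difference of responses. A gene was tested if 2 or more of the libraries fitted had 5 counts or more, and it was called if its p, adjusted by Benjamini-Hochberg over all genes tested, was below 0.05. SE was the log2 fold change divided by the root of F, and intervals are 95%. All 8 members passed the count minimum in every comparison. The depth limits Bcl2 and Pmaip1, and 2 libraries per group limit every comparison. The functions were tested on simulated data.

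Members and lists were chosen with earlier results of these data known. Named were all members and the 3 genes most like each member. From each cell death list and the interferon response list, up to 3 genes called in either direction were named, by smallest p. Where none was called, the 1 with the smallest p was named. A few of these genes, and 1 list, are not reported here. The marker lists (OL, OPC, astrocyte, microglia, neuron, fibroblast or mural, endothelial) were described by counts and sums. Neuronal markers summed to 369 to 723 CPM, fibroblast or mural markers to 2.33 to 54.2 CPM and endothelial markers to 2.21 to 21.1 CPM. Alternatives were DESeq2, DESeq2's size factors, 3 other filters, all 5 groups in 1 fit, a replicate block and leaving out each library.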

Additional observations from a re-analysis of the deposited data

Results flagged for a closer look

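Log2 responses of Bcl2l11 and Pmaip1 differed between OLs given the miR-145 mimic and OPCs given the miR-145 inhibitor, by a test of the difference itself in edgeR. The mimic response minus the inhibitor response was -1.22 for Bcl2l11 (adjusted p = 0.00692) and 1.09 for Pmaip1 (adjusted p = 0.0357). The Pmaip1 call was lost without any 1 of 6 of the 8 libraries (adjusted p = 0.0653 to 0.156) and with all 5 groups in 1 fit (0.0833). The responses come from opposite manipulations at different stages and times, which cannot be told apart. Responses that mirror each other also give a difference, and those of Pmaip1 had opposite signs (0.46 in OLs and -0.62 in OPCs). A call therefore does not show that the responses disagree.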

How the results depend on the processing

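Of 568 member values under the alternatives, 527 kept their direction and their side of the threshold. With all 5 groups in 1 fit, 4 members instead of 5 were called in OPC anti-miR-145 against OPC anti-miR-ctl (Pmaip1 lost, adjusted p = 0.102), 1 instead of 2 in the difference of responses (Pmaip1 lost, adjusted p = 0.0833), and the difference for Bad became -0.02. With single libraries left out, assuming the lone library varies like the other group, members called ranged from 2 to 6 for the inhibitor in OPCs, from 4 to 7 for OLs against OPCs and from 1 to 2 for the difference of responses, and stayed at 0 in the 3 mimic comparisons. Over those left-out fits, uncalled log2 fold changes that crossed 0 were, in OL miR-145 against OL miR-ctl, Bax (-0.10 to 0.21), Bak1 (0.00 to 0.14), Bid (-0.02 to 0.10) and Bcl2l11 (-0.18 to 0.12). In OL miR-145+miR-219 against OL miR-ctl they were Bax (-0.03 to 0.08), Bid (-0.08 to 0.02) and Pmaip1 (-0.30 to 0.40). In OL miR-145+miR-219 against OL miR-145 they were Bcl2 (-0.77 to 0.04), Bcl2l1 (-0.09 to 0.43), Bax (-0.19 to 0.11), Bak1 (-0.07 to 0.06) and Bad (-0.25 to 0.10), and in the difference of responses Bad (-0.18 to 0.19). The causes were not tested.

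No label says whether same-numbered libraries share a culture, and each comparison holds only 2 pairs. Replicate deviations correlated at 0.396 (OL miR-145 and OL miR-ctl), 0.457 (OL miR-145+miR-219 and OL miR-ctl) and 0.622 (OL miR-145+miR-219 and OL miR-145). They correlated at -0.141 between the OPC groups and at 0.063 between OL miR-ctl and OPC anti-miR-ctl. What same-numbered libraries share was not tested. With a replicate block the members called were 0, 0, 0, 5, 5 and 2, the same as without it, while all genes called rose from 0 to 2272, 132 and 184 in the mimic comparisons. A crossed pairing of the OPC libraries, added after seeing the data, called 5 members and 5536 genes instead of 4348. All genes called in OL miR-145 against OL miR-ctl numbered 637 with DESeq2 and 32 with all 5 groups in 1 fit.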
